A study of Mus musculus with 4 samples.

Results

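The cells described here were selected on their UMIs of 4 immediate early transcripts. In every library, cells with at least 400 detected genes and at most 10% of unique molecular identifiers (UMIs) in mitochondrial genes were kept, and a cell was a member when its raw UMIs of Fos, Egr1, Ier2 and Dusp1 summed to 4 or more. By this rule 265 of 13002 cells were members (2.04%). They were spread very unevenly, with 5, 3, 3 and 254 members in replicates 1 to 4, so that replicate 4 held 95.8% of them. The 4 libraries came from myeloid cells of the cortex and hippocampus of male C57BL/6J mice (1 mouse per library, n = 4), all 90 days old. Per the labels all mice had been injected with PBS into the tail vein 24 hours before they were killed, and all tissue was dissociated mechanically in the cold (cold Dounce). There was thus a single group, called cold Dounce, PBS. The study enriched the cells by sorting, and its methods report that the sort of the last animal was interrupted. The supplement names this animal Sample 4 and reports cells with the study's ex vivo activation signature almost only there. The labels do not say which library this was, and the cause was not tested.

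Immediate early genes are transcribed within minutes of a stimulus and need no new protein for it. Fos and Egr1 encode transcription factors (Fos pairs with Jun proteins to form AP-1), Ier2 encodes a nuclear regulator, and Dusp1 encodes a phosphatase that switches off MAP kinases. Microglia, the resident macrophages of the brain, express such genes when they are stimulated in the animal and also when they are stressed during tissue dissociation.

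Replicate 4 stood apart in the genes that selected the cells, and the values are given as a description because the rule used them. The sum of the 4 genes was 0 in 93.9%, 88.7%, 92.3% and 52.5% of the cells of replicates 1 to 4. A sum of 2 or more was reached by 19, 56, 24 and 778 cells. The share of members was 0.140% (95% Clopper-Pearson interval 0.0454 to 0.326), 0.0813% (0.0168 to 0.237), 0.116% (0.0240 to 0.340) and 8.04% (7.12 to 9.05). Replicate 4 was thus far above the others, whose intervals overlapped. Depth did not follow this order, since cells held a median of 1905, 2936, 2197 and 2786 UMIs, of which 1.38%, 1.26%, 1.12% and 1.18% were mitochondrial (median). When each cell was thinned to 1000 UMIs (81, 23, 85 and 76 shallower cells were left out), 30 of 3082 cells of replicate 4 still reached a sum of 4 (0.973%). After thinning, replicate 1 had 1 such cell of 3495, replicate 2 had 0 of 3669 and replicate 3 had 0 of 2491. For these counts of 0 the 95% Clopper-Pearson interval reached up to 0.100% and 0.148%. All these intervals cover counting error only. The libraries shared between 6 and 21 barcodes per pair, and 4 members carried a barcode that was also present in another library. They were counted as separate cells.

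**Figure D1:**
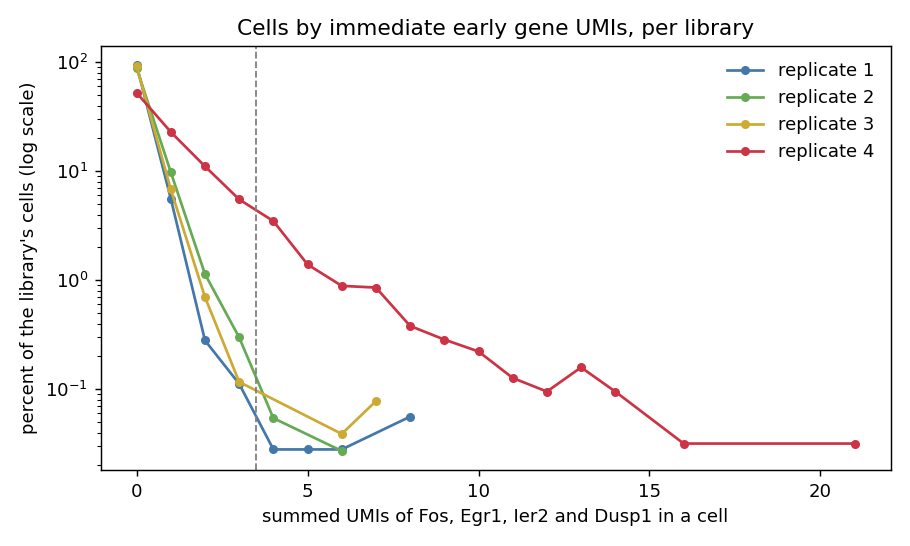
Percent of each library's cells (log scale) against the summed UMIs of Fos, Egr1, Ier2 and Dusp1 in a cell, 1 line per library, with the selection threshold dashed and sums that no cell of a library held left out. Replicate 4 declines slowly to a sum of 21, whereas the other replicates end at sums of 6 to 8.

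Within replicate 4 the threshold cut a continuous tail. The library held 174 cells of sum 3, just outside, and 110 cells of sum 4, just inside, with a median of 3059.5 and 3140 UMIs per cell. Their mean UMIs per cell were 1.16 and 1.80 for Fos, 0.960 and 1.06 for Egr1, 0.644 and 0.827 for Ier2, and 0.241 and 0.309 for Dusp1. The median sum of the 254 members was 5, and 24 members reached 10 or more. Fos contributed more of their selection UMIs than any other gene (717, against 303 of Egr1, 328 of Ier2 and 140 of Dusp1) and was the leading gene in 154 members. A single selection gene supplied every UMI in 38 members, and this gene was Fos in 28 of them. Another 102 members held 2 of the genes, 87 held 3 and 27 held all 4. The members of replicate 4, 8.04% of its cells, held 43.3% of its UMIs of these genes, so more than 1 in 2 of these UMIs lay in cells below the threshold.

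The name microglia applied to most but not all members. Against 18 microglial identity genes and a list of macrophage and monocyte markers (10 and 7 genes), 236 of the 254 members of replicate 4 carried at most 1 macrophage or monocyte UMI (219 of them carried none), and identity genes took a median of 8.29% of their UMIs (range 5.75 to 11.1). The other 18 members carried 6 to 225 macrophage or monocyte UMIs (median 25.5), and identity genes took a median of 2.65% of their UMIs (range 0.705 to 6.43). No member lay between 1 and 6 marker UMIs, and the division at 2 was chosen after the values had been seen. For comparison, cells of sum 0 with under 2 marker UMIs had a median identity share of 8.48%. These 18 cells are called marker-positive members below and are given no cell type name.

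The share of marker-positive cells that were members is given as a description, because membership is what the rule set. In replicate 4, 18 of 63 marker-positive cells were members (28.6%), beside 236 of 3095 other cells (7.63%). Their median depths were 3290 and 2780 UMIs. In replicate 1 the counts were 4 of 25 (16%) and 1 of 3551 (0.0282%), in replicate 2 they were 0 of 30 and 3 of 3662, and in replicate 3 they were 1 of 22 and 2 of 2554. Since 18 cells can carry a whole list, the contrasts below were computed for all members and again without the marker-positive cells (removed from members and controls alike). The comparison further below that leaves out each selection gene in turn was run on all cells only.

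**Figure D2:**
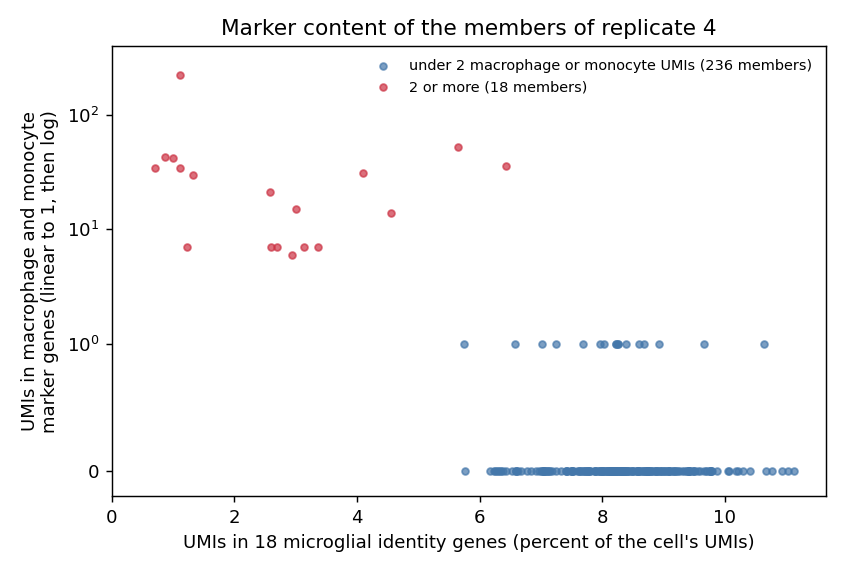
Each point is 1 of the 254 members of replicate 4, placed by the percent of its UMIs in 18 identity genes and by its UMIs in macrophage and monocyte markers (linear to 1, then log). The 236 members in blue hold 0 or 1 marker UMIs and the 18 in red hold 6 or more, at lower identity shares.

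Promoter sequences are shown for genes whose transcripts are described below, because immediate early promoters are known for short sites of SRF (the CArG box), CREB (the CRE, TGACGTCA), AP-1 (TGANTCA) and EGR factors (GCGNGGGCG). The windows are the 250 bases before the annotated start in RefSeq (build GRCm38.p6), and both strands were searched. Of 15 genes looked up, 13 had a window. A CRE was found in Dusp1 (143 bases before the start), Btg2 (166 bases) and Ppp1r15a (12 bases). A CArG box was found in Zfp36 (58 bases before the start). The EGR letters were found in Btg2, Zfp36, Fosb and Klf2. Among all 32851 promoter windows of this length, 1.55% held a CRE, 1.47% a CArG box, 4.70% the EGR letters and 6.75% the AP-1 letters, which were in none of the 13. A match describes the letters only. By GENCODE M21 on GRCm38, the selection genes Fos, Ier2 and Dusp1 lie at chr12:85473890-85477273, chr8:84661331-84662852 and chr17:26505590-26562128. Jun lies at chr4:95049034-95052222, Junb at chr8:84974484-84978718 and Klf2 at chr8:72319033-72321656. These spans cover whole genes as annotated there, introns included. The RefSeq windows of Dusp1 and Zfp36 (GENCODE span chr7:28376784-28380253) lie inside the GENCODE spans. Those of Klf2, Fosb and Ier3 overlap their spans. The window of Jund ends at chr8:70697738, before its GENCODE start at 70698949. The annotations thus differ in the start of these genes. In the 4 windows below, matches to these motifs are in capitals. They lie at chr17:26508473-26508722 (minus strand), chr1:134079156-134079405 (minus), chr7:28379229-28379478 (minus) and chr8:72318812-72319061 (plus).
Dusp1: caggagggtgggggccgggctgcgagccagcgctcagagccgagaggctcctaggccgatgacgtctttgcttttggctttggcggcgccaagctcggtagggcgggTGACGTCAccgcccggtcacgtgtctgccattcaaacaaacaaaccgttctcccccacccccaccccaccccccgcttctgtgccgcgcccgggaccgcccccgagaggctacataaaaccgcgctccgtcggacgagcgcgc
Btg2: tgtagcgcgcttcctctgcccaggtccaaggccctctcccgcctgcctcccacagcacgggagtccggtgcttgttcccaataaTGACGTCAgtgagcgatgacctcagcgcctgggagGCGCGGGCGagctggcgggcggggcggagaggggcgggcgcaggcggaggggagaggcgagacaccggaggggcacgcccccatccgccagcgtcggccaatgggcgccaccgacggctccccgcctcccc
Zfp36: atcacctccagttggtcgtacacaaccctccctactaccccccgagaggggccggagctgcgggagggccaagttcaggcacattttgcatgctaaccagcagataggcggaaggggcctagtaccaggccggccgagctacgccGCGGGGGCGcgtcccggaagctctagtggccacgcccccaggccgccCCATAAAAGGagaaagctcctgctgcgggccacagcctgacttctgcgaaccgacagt
Klf2: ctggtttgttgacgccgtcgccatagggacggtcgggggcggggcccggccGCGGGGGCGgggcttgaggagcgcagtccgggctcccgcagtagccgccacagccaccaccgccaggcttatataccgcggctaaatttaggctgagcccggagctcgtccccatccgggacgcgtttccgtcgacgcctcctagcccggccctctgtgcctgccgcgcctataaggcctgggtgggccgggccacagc

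The members of replicate 4 were compared with 508 cells of sum 0 from the same library, 2 per member, matched on UMIs. The median depth was 3207 and 3207.5 UMIs, the median number of genes 1507.5 and 1513, and the median mitochondrial share 1.27% and 1.24%. UMIs were summed over each set and scaled to CPM (counts scaled to a common library total) without the 4 selection genes. With a single library per side there is no test, the ratios carry 95% exact intervals for counting error only, and genes are sorted by size (at least 2-fold, with 50 or more UMIs over both sets). Of 5919 genes measured at this depth, 54 were at least 2-fold higher in the members (0.912%) and 24 at least 2-fold lower (0.405%), and the median log2 ratio was -0.04. Without the marker-positive cells (236 members, 472 controls), 25 of 5664 genes were at least 2-fold higher (0.441%) and 19 lower (0.335%). The 2 sets of higher genes, which rest on nearly the same cells, shared 20 genes, 37.0% of the former and 80.0% of the latter. A gene that is rare in the controls could reach 50 UMIs only through the members, and such a gene had to differ. With a minimum that a gene had to reach at the controls' own rate (chosen after seeing the data), 24 of 5892 genes were at least 2-fold higher (0.407%) and 44 lower (0.747%). Without marker-positive cells, 11 of 5664 were higher (0.194%) and 38 lower (0.671%). The counts of list genes below are given by both minimums where they differ.

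Partners of Fos in AP-1 were higher in the members. Of 11 other AP-1 genes, 5 had enough UMIs and 3 of these were at least 2-fold higher. By the minimum at the controls' rate, which left out Fosb, these were 2 of 4, with and without marker-positive cells (list median at a log2 ratio of 1.05 with them, against -0.05 over all genes). Jun, the main partner of Fos, stood at 1460 CPM in the members and 636 CPM in the controls (1282 and 1060 UMIs, ratio 2.29, interval 2.11 to 2.49). Junb, a related partner, stood at 943 and 368 CPM (ratio 2.56, 2.31 to 2.85). Both were spread over most members, with Jun detected in 236 and Junb in 222 of 254. Fosb, the closest relative of Fos, had 45 UMIs in 32 members and 8 UMIs in the controls (ratio 10.7, 4.98 to 26.2), and it passed the minimum of UMIs only through the members. Jund was 1.86-fold higher (1.63 to 2.13), and the small Maf protein gene Mafg was not different beyond counting error (ratio 0.96, 0.79 to 1.16). These values were little changed without marker-positive cells, where Jun was 2.50-fold and Junb 2.66-fold higher. Fosb then fell below the minimum, with 36 UMIs in the members.

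Among 19 other immediate early regulators, 6 were measured and Klf2 and Ier3 were at least 2-fold higher, whereas by the minimum at the controls' rate Klf2 was the only one of 5 (background 0.407%). Among the genes with enough UMIs, Klf2, a Kruppel-like transcription factor, showed the largest ratio outside the marker-positive cells. It had 330 UMIs in the 236 other members and 92 in their controls (416 and 59.8 CPM, ratio 6.96, 5.51 to 8.87). Klf2 was detected in 113 of these members with at most 12 UMIs in a cell, and the 10 highest members held 28.2% of its UMIs, so the difference did not rest on a few cells. Ier3, an early response gene that affects cell survival, had 32 and 20 UMIs (ratio 3.11, 1.72 to 5.73) and passed the minimum only through the members. Klf6 and Ier5 differed less, with ratios of 1.44 and 1.47 in the same cells, whereas Myc and Id2 had intervals that included 1. Of the unmeasured genes, Klf4 had 29 UMIs in all members and 8 in the controls, Klf10 had 26 and 11, and Egr2 had 12 and 1. Nr4a1, a widely used early gene, was nearly absent (6 and 1 UMIs).

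Part of the transcripts for mRNA decay and growth arrest were also higher. In the list of mRNA decay and growth arrest genes, 8 of 12 were measured and Zfp36, Btg2 and Ppp1r15a were at least 2-fold higher (median log2 ratio of the list 0.40). The same 3 of 8 were higher by the minimum at the controls' rate and without marker-positive cells. Zfp36 encodes tristetraprolin, which marks AU-rich mRNAs for decay, and stood at 311 CPM in the members and 136 CPM in the controls (ratio 2.29, 1.91 to 2.75). Btg2, an antiproliferative gene linked to deadenylation, stood at 1271 and 606 CPM (ratio 2.10, 1.92 to 2.29). Ppp1r15a, which encodes the stress-induced phosphatase subunit GADD34, stood at 94.5 and 36.0 CPM (ratio 2.62, 1.86 to 3.72). Each of these was spread over the members, with Btg2 detected in 237, Zfp36 in 155 and Ppp1r15a in 66 of them. The relatives Btg1 (1.27) and Zfp36l1 (1.37) differed less, and Zfp36l2 (1.05) not beyond counting error.

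The feedback genes of kinase signalling did not reach 2-fold. Of 17 genes other than Dusp1, 9 were measured, none was 2-fold higher or lower, and the median log2 ratio was 0.20 (0.24 without marker-positive cells, again with none past 2-fold). Socs3, an inhibitor of cytokine signalling, was highest (77.4 and 41.4 CPM, ratio 1.87, 1.32 to 2.65). Rgs2 (1.22) and Rhob (1.19), abundant signalling genes, differed by little. Dusp6, which like Dusp1 encodes a MAP kinase phosphatase, stood at 493 and 512 CPM (ratio 0.96, 0.86 to 1.08).

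The chemokines divided. Of 15 cytokine and chemokine genes, 9 were measured and 2 were at least 2-fold higher, Ccl2 (60.4 and 12.6 CPM, ratio 4.79, 2.84 to 8.36) and Ccl3 (128 and 43.2 CPM, ratio 2.95, 2.18 to 4.02). Ccl2 attracts monocytes, and Ccl3 is an inflammatory chemokine that microglia often express together with Ccl4. Ccl2, on 53 and 21 UMIs, passed the minimum only through the members, and by the minimum at the controls' rate 1 of 8 genes (Ccl3) was 2-fold higher. Without marker-positive cells the ratios were 4.90 for Ccl2 and 3.44 for Ccl3. Ccl4 itself stood at 52.4 and 55.8 CPM (ratio 0.94, 0.64 to 1.35). However, 1 control cell held 49 of the controls' 93 Ccl4 UMIs, so this ratio depended on that cell. Over all 1657 cells of sum 0 in replicate 4, Ccl4 stood at 26.9 CPM. The chemokine UMIs were concentrated, since 25 members held all of the Ccl2 UMIs and the 10 highest members held 67.9% of them, and Ccl3 was detected in 48 members. Ccl9 was lower (ratio 0.76, 0.65 to 0.89). Il1a (0.80), Il6 (1.03) and Osm (0.65) had intervals that included 1. Cxcl2 had 26 UMIs, all in 2 members.

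Most of the largest ratios over all members belonged to genes of a few marker-positive cells. The 15 highest included the monocyte genes Ly6c2 (51 UMIs against 1) and Plac8 (148 against 7), the macrophage gene Mrc1 (42 against 10), and the MHC class II genes Cd74 (2453 and 280 CPM, ratio 8.77), H2-Aa (9.79), H2-Ab1 (8.19) and H2-Eb1 (12.4). With Fosb, the 15 were completed by Wfdc17, Vim, S100a6, Cybb, Ifitm3, Ifitm2 and Crip1, with ratios of 7.79 to 28.9. Few cells carried them. Ly6c2 came from 4 members with 47 of its UMIs in 1 cell, and the 10 highest members held 94.0% of the Cd74 UMIs and 98.1% of those of H2-Eb1. Only 4 of 7 monocyte and 2 of 10 macrophage genes had 50 UMIs, and most of those reached it through the members, so their count is no result. Without the marker-positive cells, the ratio was 1.44 for Cd74, 0.94 for H2-Aa and 0.97 for Ifitm3, and none of the measured MHC class II genes was 2-fold higher. No monocyte or macrophage gene then had 50 UMIs, which follows from the removal, since these genes defined the cells left out.

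Heat shock genes with enough UMIs were close to the controls. None of 13 measured heat shock genes was 2-fold different (median log2 ratio 0.00), with Hspa8 at 1546 and 1561 CPM and the highest ratio for Hsp90aa1 (1.36, 1.14 to 1.62). The inducible heat shock genes Hspa1a and Hspa1b, near-identical copies, were below the minimum. Hspa1a had 11 UMIs in 7 members and 2 UMIs in the controls (10 and 2 without marker-positive cells), and Hspa1b had 3 and 0. Of 9 measured NF-kB genes 8 lay within 2-fold, with the inhibitor Nfkbia at 1.45 (1.23 to 1.70) and Relb lower (0.44, 0.22 to 0.79, on 14 and 61 UMIs). The 5 measured glucocorticoid targets ranged from 0.85 (Sult1a1) to 1.40 (Tsc22d3). The 2 measured histone genes of the exAM list, Hist1h1c and Hist1h2bc, had ratios of 1.19 and 0.87. Of the consensus exAM list, the genes that the study associates with ex vivo activation of microglia, 22 were in the table besides the selection genes, 15 were measured, and 5 were at least 2-fold higher (Klf2, Ccl3, Junb, Jun and Zfp36; background 0.912%, median log2 ratio of the list 0.51 against -0.04 over all genes). By the minimum at the controls' rate they were 5 of 14, with and without marker-positive cells. Apart from Ifitm3 and Ifi27l2a, which were high in marker-positive cells, interferon-responsive genes lay within 2-fold where measured. Of the study's list for activation in all cells of the central nervous system, which overlaps the exAM list, 8 of 16 other genes were measured and 5 were at least 2-fold higher (median log2 ratio 1.13), or 4 of 7 by the minimum at the controls' rate (median 1.07). Both lists were drawn up by the study, and they share genes with the lists above. Without marker-positive cells none of 13 heat shock genes, 1 of 9 NF-kB genes (Relb, lower) and none of 5 glucocorticoid targets was past 2-fold. Neutrophil, T cell and erythroid markers had 0 UMIs in members and controls, and neuronal markers had 4 UMIs on either side.

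Microglial identity genes were measured in full and none was 2-fold different. All 18 ratios lay between 0.83 and 0.96 over all members (median log2 ratio -0.13), and between 0.89 and 1.02 without the marker-positive cells (median log2 ratio -0.04). The lowest ratio belonged to the purinergic receptor gene P2ry13 (0.83, 0.76 to 0.91; 0.89 without marker-positive cells). Its relative P2ry12, a receptor of homeostatic microglia, stood at 4768 and 5677 CPM (ratio 0.84, 0.81 to 0.87; 0.91 without marker-positive cells). Tmem119, a surface marker of microglia, had ratios of 0.96 and 1.02.

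**Figure D3:**
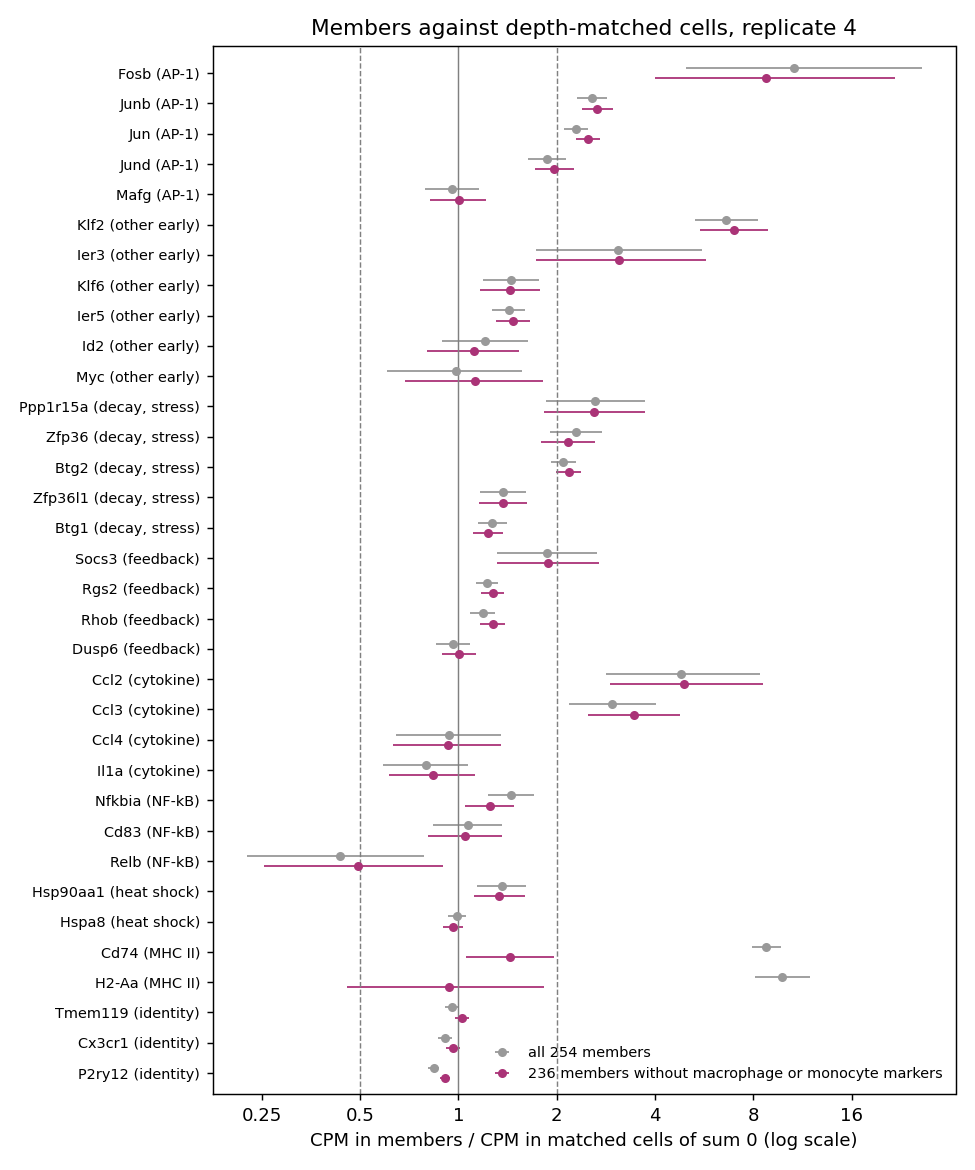
Ratio of CPM in members to CPM in matched cells of sum 0 in replicate 4 (log scale), with 95% exact intervals for counting error. Grey shows all 254 members and purple the 236 with at most 1 macrophage or monocyte UMI. Early genes keep their ratios when the marker-positive cells are removed, whereas Cd74 moves from 8.77 to 1.44.

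Outside the early genes, few transcripts were 2-fold higher without the marker-positive cells, and most of those named here had few UMIs. The 15 highest in this setting also held Hist4h4 (3.35), a histone gene, the uncharacterised transcripts Gm26522 (2.96) and B930036N10Rik (2.73), the histone demethylase gene Kdm6b (2.73), the kinase gene Hipk1 (2.68), the nuclear noncoding RNA Neat1 (2.24) and Utp23 (2.22). Their UMIs in members ranged from 29 to 82, and of these 7 genes Gm26522 and Neat1 alone met the minimum at the controls' rate. Apoe, which encodes a lipid carrier, had a ratio of 2.14 on 813 UMIs in members, of which 10 members held 66.4% and 1 cell held 176. The genes lowest in all members were Cdk2ap1 (0.32), Osgin2 (0.32), Lpin1 (0.37), Alg3 (0.41), Trnt1 (0.41), Slc52a2 (0.42), Zfp68 (0.42), Relb, Mrpl10 (0.45) and Clpb (0.45). None of these 10 had more than 20 UMIs in the members. They share no list fixed for the work except for Relb, and with 24 of 5919 genes lower they are given as values only.

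Jun and Btg2 already differed between cells below the selection threshold. In replicate 4, without marker-positive cells, Jun stood at 604 CPM in cells of sum 0 (n = 1640 cells), at 791 in cells of sum 1, at 999 for 2, at 1215 for 3, at 1423 for 4 to 5 and at 1791 for 6 or more. The counting intervals of neighbouring classes did not overlap for Jun (581 to 627 against 753 to 830 CPM for sums 0 and 1). Btg2 followed with 601, 714, 942, 1203, 1190 and 1599 CPM, and the classes 3 and 4 to 5 did not differ beyond counting error. Klf2 climbed more steeply, with 68.2, 99.9, 120, 172, 356 and 508 CPM, and its largest rise lay at the threshold, between sums of 3 (interval 139 to 211 CPM) and of 4 to 5 (305 to 414 CPM). Tmem119 stayed between 2942 and 3207 CPM and Hspa8 between 1475 and 1534 CPM in the same classes. Cells of higher sum were somewhat deeper (median 2645.5 UMIs for sum 0 and 3234.5 for 6 or more), and the values are scaled for depth.

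Even cells with none of the 4 selection transcripts differed between libraries. In cells of sum 0 that were not marker-positive, Jun stood at 257, 346, 257 and 604 CPM in replicates 1 to 4. Btg2 stood at 368, 372, 344 and 601 CPM, Zfp36 at 79.0, 79.3, 67.3 and 143 CPM, and Klf2 at 20.6, 13.4, 27.3 and 68.2 CPM. Replicate 4 was highest for each of these. Hspa8 stood at 2201, 2312, 1639 and 1500 CPM and Tmem119 at 3030, 2912, 2998 and 3133 CPM, and replicate 4 was the lowest for the former. The ratios within replicate 4 above were therefore taken against controls that already carried more Jun, Btg2, Zfp36 and Klf2 than cells of sum 0 elsewhere. At this depth a sum of 0 does not show that a cell lacked the transcripts.

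**Figure D4:**
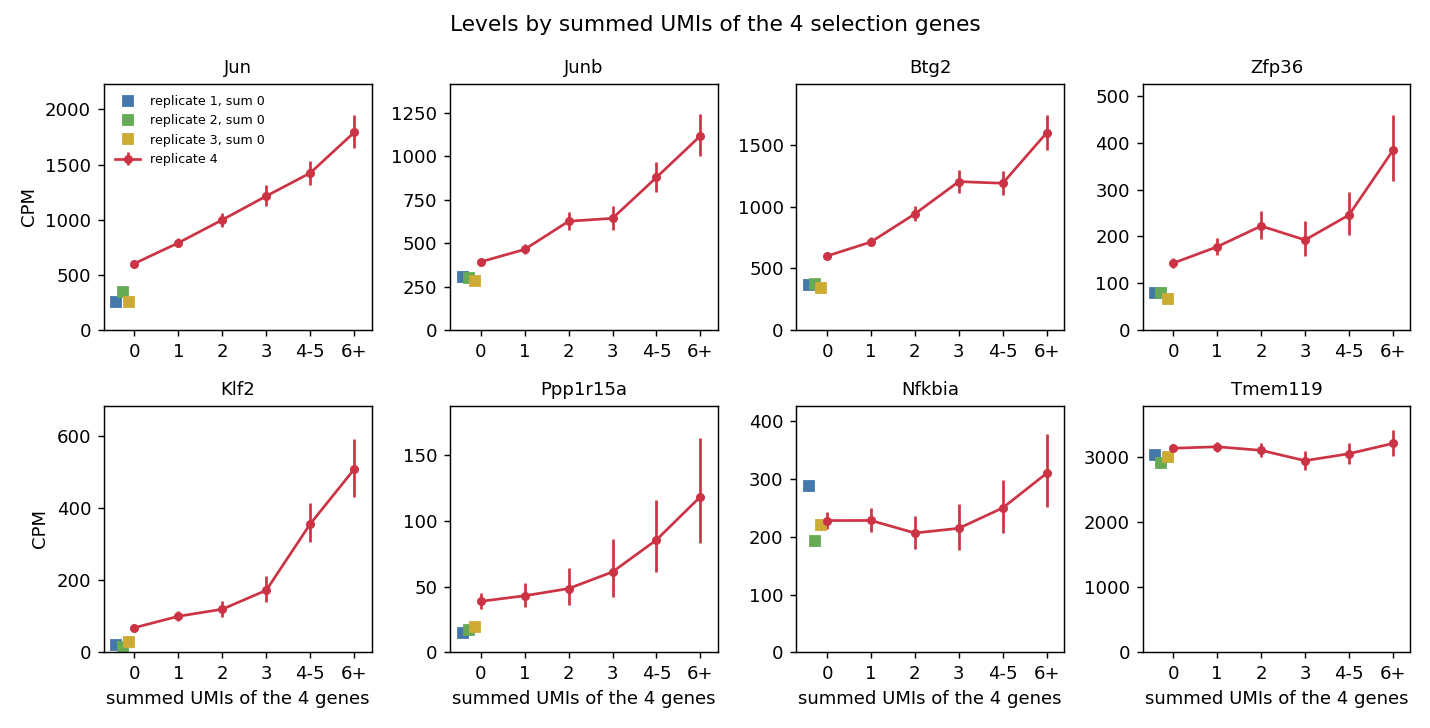
CPM of 8 genes against the summed UMIs of the 4 selection genes in replicate 4, without marker-positive cells (red, 95% exact Poisson intervals), and in cells of sum 0 of replicates 1 to 3 (squares, offset to the left). Jun climbs from 604 to 1791 CPM and Klf2 from 68.2 to 508 CPM, whereas Tmem119 stays between 2942 and 3207 CPM.

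As a description of the selection genes themselves, each was left out of the sum in turn, with marker-positive cells kept. In replicate 4, 216 cells had 3 or more UMIs of Egr1, Ier2 and Dusp1, and Fos stood at 436 CPM there and at 99.6 CPM in 432 matched cells without those 3 transcripts (ratio 4.38, 3.59 to 5.36). The same comparison gave a ratio of 4.08 for Dusp1 (2.94 to 5.72; 91.8 and 22.5 CPM), 3.38 for Ier2 (2.69 to 4.26; 201 and 59.3 CPM) and 2.25 for Egr1 (1.82 to 2.79; 201 and 89.3 CPM). Fos was detected in 52.8% of the cells so chosen and in 19.0% of their controls. The 4 ratios rest on different sets of cells of 1 library. In replicates 1 to 3 only 3 to 12 cells per library could be chosen in this way, and the left-out gene had 0 to 10 UMIs in them.

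A comparison over all 4 libraries used cells of sum 2 or more (19, 56, 24 and 778 cells), since members were too few elsewhere, against 2 matched cells of sum 0 each. UMIs were summed per library and tested with edgeR's quasi-likelihood test, with the library as a block and Benjamini-Hochberg adjustment over 2855 genes. In replicate 4 the cells of sum 0 ran short, so that the median depth was 3017.5 UMIs against 2712.5. In all cells, 28 genes were higher (0.981%) and 0 lower (0.0%, with 71 lower at an unadjusted p under 0.05 and 0 lower by DESeq2). The smallest p-values belonged to genes of the marker-positive cells. Cd74 stood at 4967, 1949, 4731 and 1466 CPM in cells of sum 2 or more and at 10.6, 34.5, 45.0 and 254 CPM in those of sum 0, without overlap (log2 fold change 4.57 ± 0.40, SE, edgeR adjusted p = 6.0e-09, higher in 4 of 4 libraries). Ifitm3, H2-Eb1, H2-Ab1, H2-Aa, Crip1, Apoe, Lyz2 and Ifi27l2a were also called, with log2 fold changes of 1.98 to 3.74. Several of these were nearly absent from the controls, where H2-Aa had 0, 2 and 2 UMIs and Crip1 had 0, 2 and 0 UMIs in replicates 1 to 3. When genes were filtered on the cells of sum 0 alone (chosen after seeing the data), 9 of the 28 were not measured. They were Cd74, Ifitm3, H2-Eb1, H2-Ab1, H2-Aa, Crip1, Ifi27l2a, Emp3 and Neat1, which had entered the test through the cells of sum 2 or more, so that their calls are no independent result. The other 19 were called in that setting as well. Klf2 was also among the 10 smallest (log2 fold change 2.11 ± 0.22, SE, edgeR adjusted p = 2.4e-07). In replicates 1 to 3 its cells of sum 2 or more held 43, 43 and 14 UMIs of Klf2. Without marker-positive cells these were 1, 7 and 4, so outside replicate 4 the call rested mainly on marker-positive cells.

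Without marker-positive cells (11, 47, 22 and 745 cells of sum 2 or more), 7 of 2375 genes were higher (0.295%) and 0 lower (0.0%, with 49 lower at an unadjusted p under 0.05; DESeq2 was not run in this setting). They were Jun, Junb, Jund, Zfp36 and Btg2, which were also among the 28, and Hist1h2ap (a histone gene with near-identical copies) and Slc15a3 (a peptide and histidine transporter). Jun stood at 596, 586, 321 and 1241 CPM in cells of sum 2 or more and at 219, 327, 221 and 605 CPM in cells of sum 0, higher in 4 of 4 libraries (log2 fold change 0.98 ± 0.10, SE, edgeR adjusted p = 1.9e-07). Junb stood at 477, 324, 733 and 746 CPM and at 199, 265, 168 and 393 CPM, again higher in 4 of 4 (log2 fold change 0.94 ± 0.12, SE, edgeR adjusted p = 6.7e-06). Jund was the only one of the 7 whose groups did not overlap, with 318, 287, 366 and 459 CPM against 179, 224, 206 and 268 CPM (log2 fold change 0.75 ± 0.08, SE, edgeR adjusted p = 6.4e-07). Zfp36 was higher in 4 of 4 libraries and Btg2 in 3 of 4 (edgeR adjusted p = 2.0e-05 and 3.4e-05). With the filter on the cells of sum 0 alone, 5 of the 7 were called, whereas Zfp36 was not measured and Slc15a3 was not called (edgeR adjusted p = 0.056). Klf2 did not pass the filter on low counts here, with 39.8, 43.6, 61.1 and 232 CPM against 39.7, 3.12, 114 and 68.6 CPM. Its UMIs were 1, 7, 4 and 544 against 2, 1, 15 and 286. The difference thus rested on replicate 4, since replicate 2 was higher on few UMIs and replicate 3 was lower. In this setting 3 of 4 measured AP-1 genes and 2 of 5 measured decay and growth arrest genes were called. None of the 18 identity genes, 10 measured heat shock genes, 4 measured kinase feedback genes or 4 measured NF-kB genes was called. Tmem119 stood at 2942, 2669, 2550 and 3068 CPM against 3418, 2933, 2877 and 3116 CPM, below its controls in 4 of 4 libraries without being called (log2 fold change -0.10 ± 0.066, SE, edgeR adjusted p = 0.9997). P2ry12 was also below its controls in 4 of 4 libraries and not called (log2 fold change -0.17 ± 0.059, SE, edgeR adjusted p = 0.68). Cx3cr1 was higher in 2 of 4.

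These calls leaned on replicate 4. Without replicate 4 and without marker-positive cells, 0 of 1600 genes were called (81 at an unadjusted p under 0.05), and Jun had a log2 fold change of 0.84 and Junb of 0.99 (edgeR adjusted p = 0.13 and 0.14). There Zfp36 had a log2 fold change of 0.95, Jund of 0.54 (0.75 with replicate 4) and Btg2 of 0.42 (0.76 with it), and Slc15a3 turned from 0.41 to -0.039 (edgeR adjusted p from 0.87 to 0.9985 for these 4). Hist1h2ap did not pass the filter on low counts. Without replicate 4 but with all cells, 29 genes were higher and 3 lower. Of the 28 genes called with all cells of all 4 libraries, 21 were still called. Junb was 1 of these (log2 fold change 0.91, edgeR adjusted p = 0.0079). Jun, Jund, Zfp36 and Btg2 were not called there (edgeR adjusted p from 0.13 to 0.54).

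**Figure D5:**
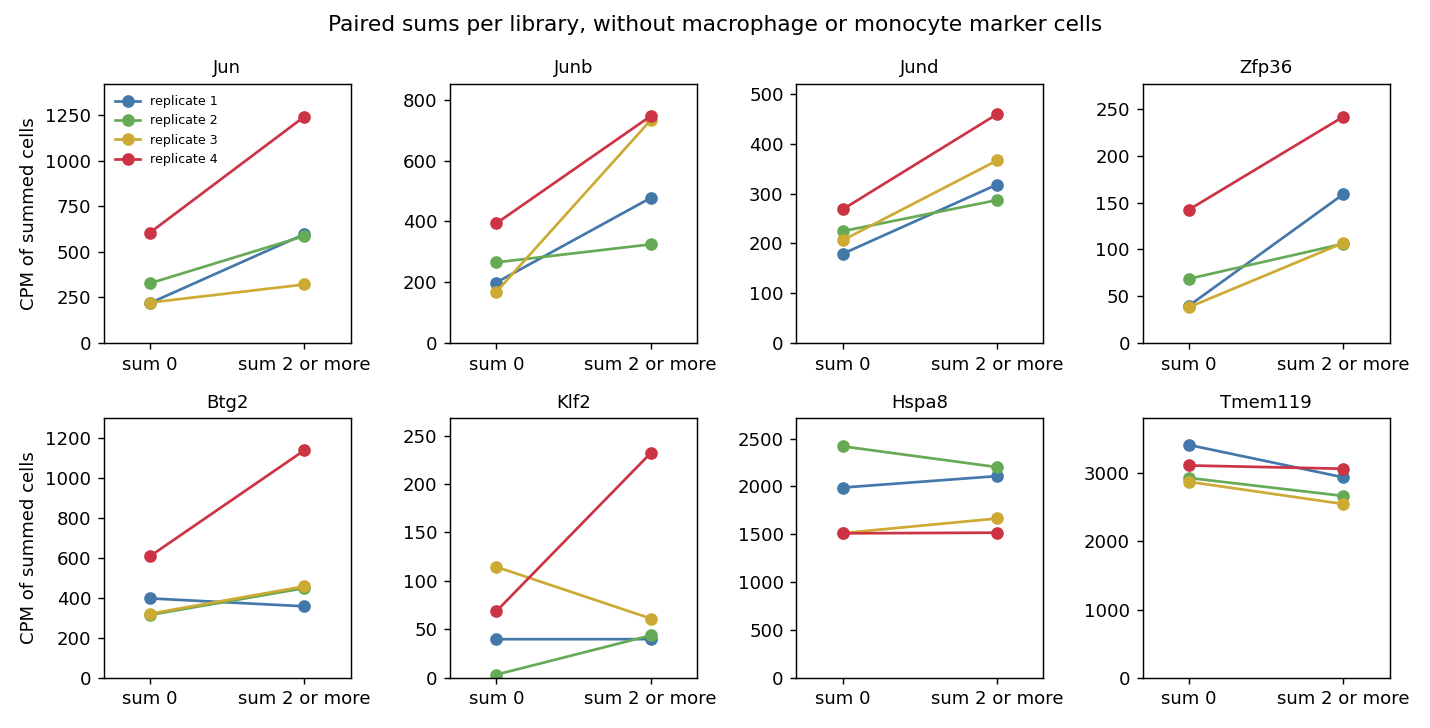
CPM of summed cells of sum 0 and of sum 2 or more, joined by a line for each of the 4 libraries, without marker-positive cells. Jun, Junb, Jund and Zfp36 are higher in 4 of 4 libraries, Btg2 in 3 of 4, and Hspa8 shows no common direction. Tmem119 lies lower in 4 of 4 but was not called.

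The 11 members of replicates 1 to 3 were mixed. In replicate 1, 4 of the 5 members carried 4 to 93 macrophage or monocyte UMIs and identity genes took 0.579% to 1.15% of their UMIs. The remaining one, of sum 8, carried 0 such UMIs, had an identity share of 7.03% and held 6 UMIs of Jun and 6 of Junb. All 3 members of replicate 2 carried 0 marker UMIs, at identity shares of 8.25% to 10.0%. In replicate 3, 1 member of 3 carried 42 marker UMIs at an identity share of 0.807%. The highest Klf2 count of these members was 19 UMIs, in a marker-positive member of replicate 1, and the 6 members without markers held at most 1 each. Outside replicate 4, marker-positive members were thus 5 of 11 by count, against 18 of 254 within it.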

How the data were processed

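Gene expression was measured by droplet single-cell RNA sequencing (10x Genomics 3′ kit, second version) in 4 libraries. The deposited values were UMI counts per gene and cell, as whole numbers, for 28692 genes. The authors made them with bcl2fastq and Cell Ranger 2.2.0 on mm10 (GRCm38), and the counts were not normalised. The cells had been called before deposit, and no doublets were removed here. The 3 files of a library (barcodes, genes and matrix) were joined by order. Total UMIs were 7096371, 11275195, 5867333 and 9016276, and 136 of 13138 barcodes were left out by the cell filters. Antisense, overlapping and near-identical genes (histone genes among them) are uncertain in such counts.

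The members, gene lists and tests were chosen with earlier results of these data known. In the single-library contrast each member was matched without replacement to the 2 nearest cells of sum 0. Named genes were the 15 highest and 10 lowest ratios among genes with 50 or more UMIs, the 10 smallest p-values called, and the genes of each list with most UMIs. Genes singled out without the marker-positive cells were chosen after their values were seen. Of the list genes, 3 were not matched in the table. The replicated contrast was fitted in edgeR 4.0.16 (R 4.3.3) with TMM scaling, filterByExpr and a false discovery rate of 0.05. Both arms of a pair came from the same mouse, so the library was kept as a block. Deviations of the arms of a library from the arm means correlated across genes with r = 0.06, 0.08, 0.03 and 0.24. DESeq2 1.42.0 was an alternative. Standard errors were derived from the quasi-likelihood F. Exact intervals used scipy 1.17.1. Procedures were tested on simulated data. Nothing besides the library labels shows that the mice were independent of shared handling. Sequences came from RefSeq.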

Additional observations from a re-analysis of the deposited data

Results flagged for a closer look

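A total of 24 gene levels in cells of sum 0 (without marker-positive cells), with 1 value per library and none from the selection genes, were examined for a library that lies apart from the other 3 (gap to the nearest library over the range of all 4, above Dixon's critical value at 95%), and chance alone would single out about 1 in 20. The 3 levels past it all concerned replicate 4. All levels come from the same libraries, and their genes were chosen with earlier results known. Their number therefore cannot be set against that rate. Btg2 stood at 601 CPM there (others 344 to 372), Zfp36 at 143 CPM (others 67.3 to 79.3) and Fosb at 5.07 CPM (others 0.948 to 1.22). Jun, Junb, Klf2 and Ppp1r15a were also highest in replicate 4 but did not pass. So were genes outside the early lists, such as Tmem119 (3133 CPM, others 2912 to 3030) and Cd74 (68.7 CPM, others 33.2 to 61.5). Jund was not highest there (269 CPM, against 281 CPM in replicate 3).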

How the results depend on the processing

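The share of members moved with the threshold, to 13.6% in replicate 4 and 0.295% in replicates 1 to 3 together at a sum of 3 or more, to 3.17% in replicate 4 at 6 or more, and to 0.973% and 0.0104% after thinning to 1000 UMIs. Replicate 4 stayed highest in each of these settings. In the single-library contrast with a minimum of 20 UMIs, 155 of 8277 genes were at least 2-fold higher (1.87%). With a minimum of 100 they were 24 of 3794 (0.633%). After thinning (30 members) they were 8 of 242 (3.31%). Without cells with 3 or more macrophage, monocyte or MHC class II UMIs (147 members left) they were 18 of 4002 (0.450%). Without marker-positive cells they were 25 of 5664 (0.441%). The last was chosen after seeing the data, as was the minimum at the controls' rate, which gave 24 higher and 44 lower with all cells, 11 and 38 without marker-positive cells, and 1 each for the other immediate early factors and the cytokines. The genes at least 2-fold lower were 13 of 4718 with 1 matched cell per member (0.276%) and 69 of 7194 with 4 (0.959%). Against all cells of sum 0 they were 122 of 7884 (1.55%). With a minimum of 20 UMIs they were 172 of 8277 (2.08%), and with 100 they were 4 of 3794 (0.105%). After thinning they were 2 of 242 (0.826%). Without cells with 3 or more marker or MHC class II UMIs they were 14 of 4002 (0.350%). The stricter minimum and the thinning test fewer genes by construction. For other causes, the cause was not tested.

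By list, other immediate early factors at least 2-fold higher numbered 4 against all cells of sum 0, 4 at a sum of 3 or more, 1 at 6 or more and 0 after thinning. After thinning, the decay and growth arrest genes numbered 1, the cytokines 0 and the MHC class II genes 1, and MHC class II genes numbered 0 without marker-positive cells. Ratios of 9 genes crossed 1 when marker or MHC class II cells were left out. Without cells with 3 or more such UMIs they were 0 for Plac8 and S100a6, 0.66 for Vim, Ifitm3 and Mrc1, 0.85 for H2-Eb1 and H2-Ab1 and 0.99 for Ifitm2. Without marker-positive cells they were 0.324 for Plac8, 0.647 for S100a6, 0.672 for H2-Eb1, 0.971 for Ifitm3, 0.937 for H2-Aa, 0.955 for H2-Ab1, 0.776 for Mrc1 and 0.832 for Ifitm2. Plac8, S100a6 and Mrc1 were among the genes that defined the cells left out in both settings, and H2-Eb1 and H2-Ab1 in the first. Their fall there follows from the removal and is no independent result. Lpin1, Alg3 and Zfp68 came to 1.005 after thinning.

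In the replicated contrast, genes called higher were 88 of 8211 with cells of sum 1 or more and 8 of 806 with 3 or more. They were 97 of 14092 without the filter on low counts, 115 of 9845 against all cells of sum 0 and 51 of 9184 with DESeq2. Without marker-positive cells they were 7 of 2375, and in the main setting 28 of 2855. Genes called lower numbered 9 with sum 1 or more, 4 without the filter and 4 against all cells of sum 0. Without the replicate block, that is ignoring the pairing within libraries, 10 genes were called higher, and Jun (edgeR adjusted p = 0.87), Junb (0.066), Jund (0.36), Zfp36 (0.45) and Btg2 (0.9996) were not, while Klf2 was (0.0028). Leaving out 1 replicate gave 19 to 38 genes higher and 0 to 3 lower with all cells, and 0 to 11 higher and 0 to 1 lower without marker-positive cells. In the latter, log2 fold changes turned to -0.20 (Cd52), -0.095 (H2-D1), -0.039 (Slc15a3, called when all 4 were kept) and -0.031 (Tmsb10) without replicate 4, and to -0.012 (H2-D1) and -0.026 (Tmsb10) without replicate 2. Jun was called in 14 of 18 alternatives (edgeR adjusted p from 6.0e-24 to 0.87) and Klf2 in 14 of the 14 that measured it (up to 0.012). However, Klf2 did not pass the filter on low counts without marker-positive cells when all 4 libraries were kept. With the filter on the cells of sum 0 alone, 20 genes were called higher and 1 lower with all cells, and 5 higher without marker-positive cells. Few cells limit all of this outside replicate 4, since 9, 14 and 6 cells of replicates 1 to 3 reached a sum of 3.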
